A study of Mus musculus with 9 samples.

Results

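The interferon-stimulated genes (ISGs) described here are 44 genes chosen by name from the 55367 genes of a mouse osteosarcoma (OS) RNA-Seq table. They were taken where the table's gene symbol was on a list of antiviral effectors, sensors, transcription factors and chemokines that interferons are known to induce, and all 44 were found. Whole tumors from 4 p53-driven and 5 Myc-knockin genetically engineered mice were sequenced, and the question was how the ISGs differed between the models. The p53-driven mice are labelled Col2.3-Cre/TrpP53fl/+, so that a Cre recombinase under the osteoblast promoter Col2.3 removes 1 floxed allele of Trp53. The Myc-knockin mice carry the same heterozygous floxed Trp53 allele and, in addition, a c-Myc allele with the T58A change behind a Lox-Stop-Lox cassette, which Cre switches on. Both groups thus share the Trp53 allele and the Cre, and no normal bone was compared. The Cre acts in the osteoblast lineage, while the sequenced RNA came from all cells of the resected tumor. Ages and sexes of the mice were not used here.

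Type I and type III interferons are secreted when a cell senses viral or misplaced nucleic acid. Type I interferon binds IFNAR1 and IFNAR2 and acts through the kinases JAK1 and TYK2 on a complex called ISGF3, which holds STAT2 and IRF9 and binds interferon-stimulated response elements (ISREs) in the promoters of ISGs. Interferon gamma binds IFNGR1 and IFNGR2 and acts through JAK1 and JAK2 on promoters with gamma-activated sites (GAS). In tumors, these genes are used as a readout of interferon signaling in the cancer cells and in the leukocytes among them.

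The promoters of the ISGs are shown first, since these short elements are what the genes are known to share. RefSeq promoters of 300 bases (250 before and 50 after the start, GRCm38.p6) were at hand for 33 of the 44 genes, 40 promoters in all. An ISRE-like match, a pair of GAAA repeats with 2 other bases between them, searched on both strands, was in 18 of the 40 promoters (45%) and in 3.44% of all 32851 promoters of this length. A GAS match, TTCNNNGAA, which reads the same on both strands, was in 8 of the 40 (20%) and in 8.3% of all promoters. Matches are descriptions of letters and do not show binding. The stretches below are from some of the genes whose values are described further on. Each gives the match nearest to the start in capitals with up to 10 bases on each side. They read 5′ to 3′ on the strand of the gene. Matches not shown include a GAS of Bst2 and of Ifit2, which begin 136 and 241 bases before the start. ISRE-like matches of Oas1a, Gbp2, Gbp3, Igtp and Irgm1 are also among those not shown. A match that begins with TTTC lies on the opposite strand.
Isg15, ISRE-like, chr4:156200865-156200894, minus strand: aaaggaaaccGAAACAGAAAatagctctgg
Ifit1, ISRE-like, chr19:34640794-34640823, plus strand: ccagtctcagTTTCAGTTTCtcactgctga
Ifit3, ISRE-like, chr19:34583397-34583426, plus strand: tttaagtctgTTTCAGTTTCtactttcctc
Rsad2, ISRE-like, chr12:26456553-26456582, minus strand: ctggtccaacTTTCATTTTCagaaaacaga
Cxcl10, ISRE-like, chr5:92349083-92349112, minus strand: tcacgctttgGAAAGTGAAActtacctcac
Oas3, ISRE-like, chr5:120777715-120777744, minus strand: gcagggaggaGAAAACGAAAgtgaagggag
Stat2, ISRE-like, chr10:128270266-128270295, plus strand: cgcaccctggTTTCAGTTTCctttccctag
Bst2, ISRE-like, chr8:71537577-71537606, minus strand: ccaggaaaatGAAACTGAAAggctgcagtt
Gbp7, ISRE-like, chr3:142530273-142530302, plus strand: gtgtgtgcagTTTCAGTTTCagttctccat
Gbp7, GAS, chr3:142530239-142530267, plus strand: aagcagaagcTTCTCAGAAagtcagcaca
Irf1, GAS, chr11:53769914-53769942, plus strand: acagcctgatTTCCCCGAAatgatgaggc
The promoters of Samd9l and Herc6 held neither motif in this window, and the 1 ISRE-like match of Ddx58 did not lie wholly before the start.

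Reads on 13 satellite-repeat genes made up 23.2% to 81.0% of the counts in F187, M351, M408 and M9 and at most 0.0242% in the other 5. Reads in these libraries also lay on genes that bone tumors do not use. A background estimated from 1779 chemosensory receptor genes per kilobase of exon came to 13.6% of the ISG counts in F187, 31.4% in M351 and 32.6% in M9, and to less than 1% in each of the other 6. M624 and M664, both Myc knockin, had 3.47 and 6.35 CPM (counts scaled by edgeR to the normalized library size) of the small RNA Rn7sk, while the other 7 had at least 6545 CPM. F325, F331 and F368 are thus all p53 driven and M624 and M664 all Myc knockin, and within these 5 libraries the kind of library and the genotype cannot be told apart. Total counts ran from 2716322 (M351) to 17073285 (M624), and the ISGs together took 650 counts in M351 and 16062 in M664. Myc was higher in every Myc-knockin tumor (144 to 1045 CPM) than in any p53-driven tumor (43.5 to 67.1 CPM), as the labels require. Summed over 12 osteoblast markers the p53-driven tumors had 65722 to 141829 CPM and the Myc-knockin tumors 3698 to 42093 CPM. Markers of the bone-forming lineage were thus present in every tumor. Most of each sum came from the collagen genes Col1a1 and Col1a2, so the sums do not give the level of the other markers. Of the 12 markers, 6 were lower in every Myc-knockin tumor than in any p53-driven tumor, and the rest overlapped. The log2 fold change, Myc knockin over p53 driven, was below 0 for 11 and above 0 for 1 (Pth1r, 0.80). The widest gaps were those of Bglap2 (-5.42) and Bglap (-5.34), the gene of osteocalcin. Bglap was at 17.7 to 83.3 CPM in the p53-driven tumors and at 0 to 3.98 CPM in the Myc-knockin tumors.

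As a group, the ISGs did not shift between the models by more than the spread among tumors of one model. The mean log2 CPM over the 44 genes was 2.44 in F187, 3.45 in F325, 3.07 in F331 and 2.18 in F368. In the Myc-knockin model it was 2.86 in M351, 3.24 in M408, 3.36 in M9, 1.48 in M624 and 3.51 in M664. Values of single tumors are given in this order from here on. The lowest and the highest of the 9 values were both Myc knockin, and the 4 p53-driven values lay between them. The group means were 2.89 ± 0.82 (SD, n = 5) for Myc knockin and 2.78 ± 0.58 (SD, n = 4) for p53 driven, a difference of 0.10. The mean over all 15365 genes tested differed by 0.05. Once the estimated background reads and the satellite genes were taken out, the group means were 3.24 ± 0.82 and 3.25 ± 0.67.

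**Figure D1:**
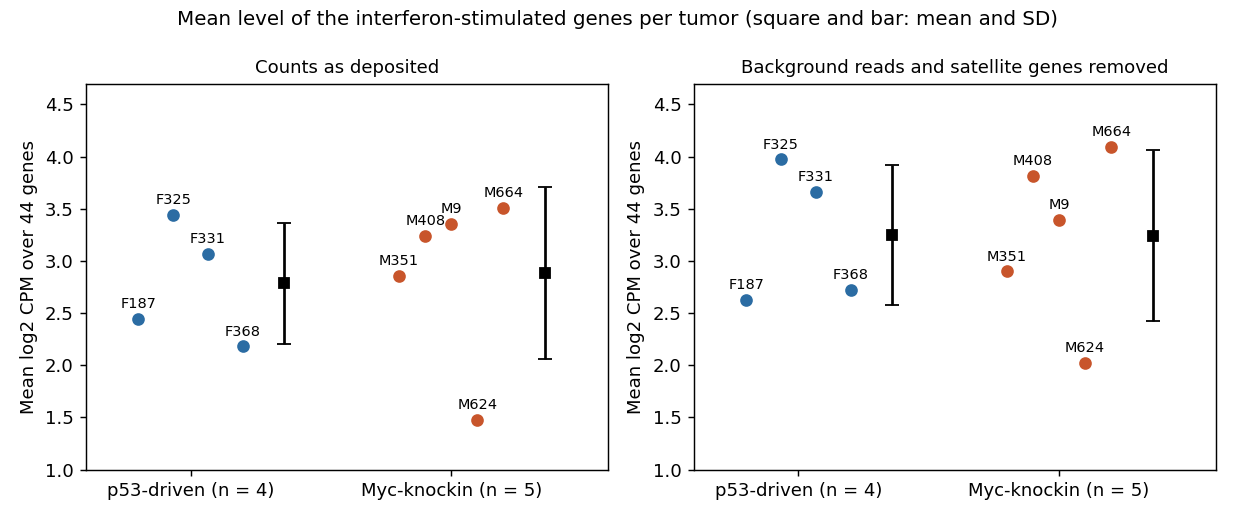
Mean log2 CPM of the 44 interferon-stimulated genes in each tumor (points, named) with the mean and SD of each group (squares and bars), from the counts as deposited on the left and without background reads and satellite genes on the right. On both sides M624 is the lowest and M664 the highest of the 9 tumors, and the group means differ by 0.10 on the left and -0.0022 on the right.

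Gene by gene, 1 ISG was called lower in the Myc-knockin tumors and 0 were called higher by edgeR, at an adjusted p under 0.05 over all genes and a fold change over 1.5. Of all genes tested, edgeR called 2.26% higher and 3% lower. DESeq2 called 1 ISG higher (Bst2) and 1 lower, where it called 2.79% and 2.21% of the 47572 genes with a p value. That set was not cut by the filter on low counts, unlike the 15365 genes of edgeR and limma-voom. DESeq2 can also leave genes of low count without an adjusted p, and such genes could not be called. Its shares of all genes may thus be too low to set beside the ISGs. With limma-voom 0 were higher and 1 lower, against 4.32% and 6.51% of all genes. The gene lower was Ddx58 in each. At an unadjusted p under 0.05 there were 3 ISGs higher (Mx2, Cmpk2 and Bst2) and 5 lower (Ddx58, Irf1, Gbp7, Herc6 and Samd9l), where all genes gave 14.9% and 11.8%. The log2 fold change, Myc knockin over p53 driven, was above 0 for 28 ISGs and below 0 for 16, with a median of 0.20 against 0.14 for all genes. The groups did not overlap for 3 ISGs, Ddx58, Samd9l and Herc6, each lower in Myc knockin, and for no ISG in the other direction. Among all genes 7.54% were lower and 5.41% higher without overlap. The shares of ISGs called or without overlap were thus close to or under those of the genome as a whole.

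**Figure D2:**
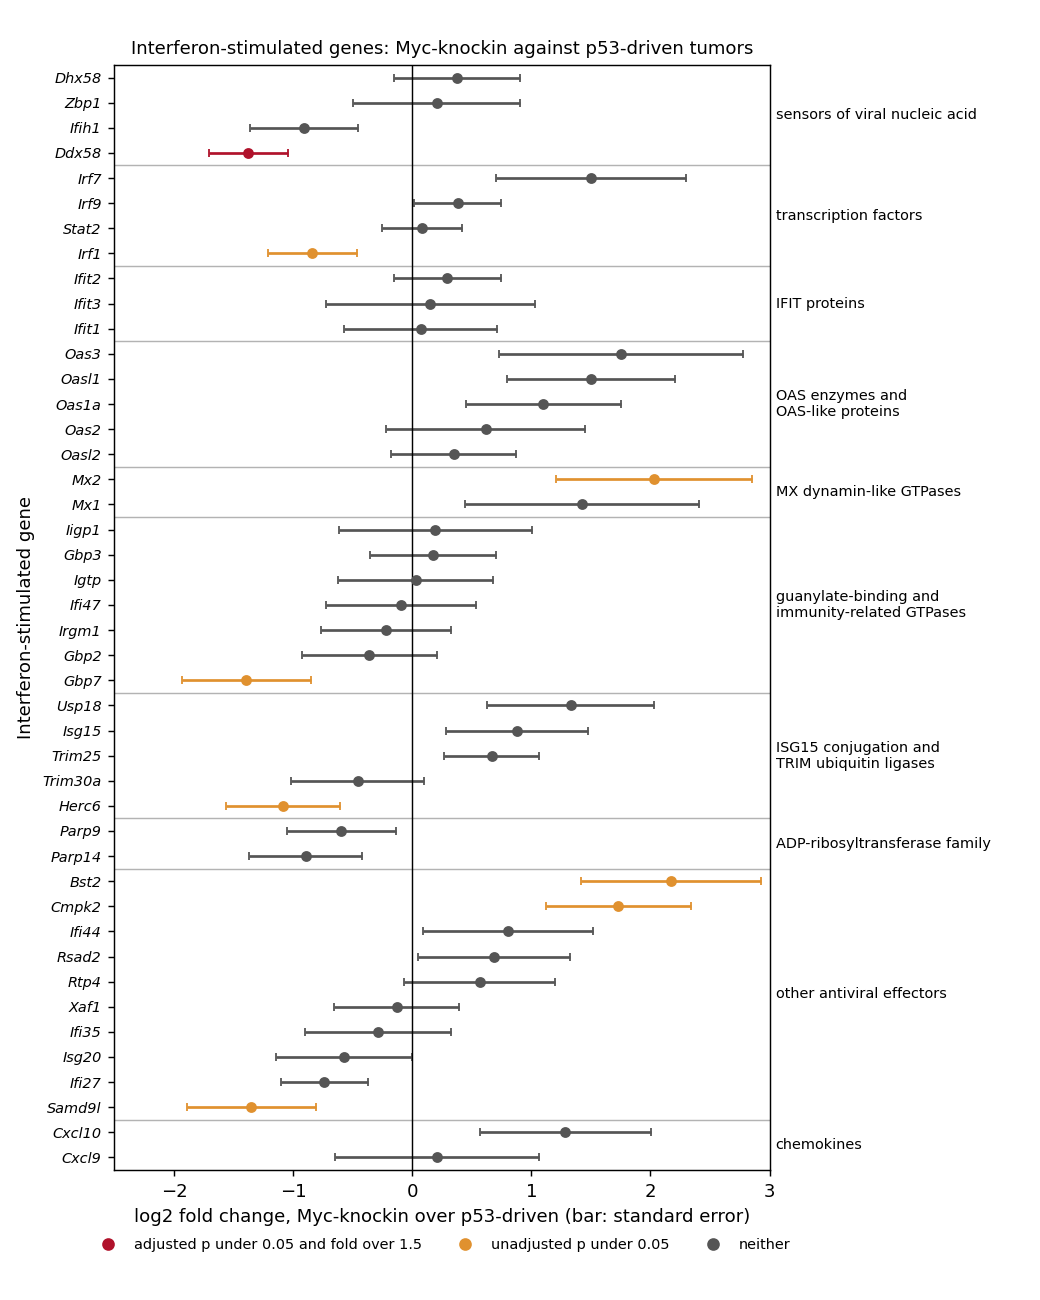
log2 fold change of each interferon-stimulated gene, Myc knockin (n = 5) over p53 driven (n = 4), with its standard error from edgeR, grouped by role. The red point is Ddx58, the 1 gene called, and the 7 orange points had an unadjusted p under 0.05 only.

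The called gene was an RNA sensor. Ddx58 encodes RIG-I, the cytosolic sensor of short viral RNA with a triphosphate end, and lies on chromosome 4 from 40203773 to 40239828 (mm10, ENSMUSG00000040296). Its level was 31.2, 56.5, 32.5 and 46.0 CPM in the p53-driven tumors. In Myc knockin it was 15.4, 17.9, 23.1, 8.34 and 16.6 CPM. Every p53-driven tumor was above every Myc-knockin tumor, with M624 the lowest. The log2 fold change was -1.37 (SE 0.33, adjusted p = 0.0411). It was below 0 in all fits, but the adjusted p was 0.0615 with upper-quartile normalization, 0.19 with library size alone, 0.0764 with all genes of at least 1 count and 0.0667 without M624 and M664, and it stayed under 0.05 in 1 of the 9 fits that left out a tumor (without M9, 0.0276), with 0.0574 without F187, 0.127 without F325, 0.104 without F331, 0.139 without F368, 0.0685 without M351, 0.0513 without M408, 0.0632 without M624 and 0.0602 without M664. The counts behind the values in F187, M351 and M9 were 79, 25 and 29, of which 5.01, 7.93 and 8.77 are expected from background. Ifih1, which encodes the long-RNA sensor MDA5, had a log2 fold change of -0.91 (adjusted p = 0.225) with 18.2 to 36.6 CPM in p53-driven and 4.08 to 23.1 CPM in Myc-knockin tumors. Dhx58, the RIG-I-like regulator LGP2, and Zbp1, a sensor of left-handed nucleic acid, had log2 fold changes of 0.38 and 0.20 and overlapping groups.

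The summed level of pan-leukocyte markers also stood lower in Myc knockin. Summed over 10 pan-leukocyte markers the p53-driven tumors had 513 to 1039 CPM and the Myc-knockin tumors 169 to 431 CPM, without overlap, and 8 of the 10 had a log2 fold change below 0, of which 2 were called lower, where 3% of all genes were. For 14 macrophage and monocyte markers the sums were 923 to 1753 CPM and 454 to 1427 CPM, with 10 log2 fold changes below 0 and 4 above, and 3 were called lower. Osteoclasts, the bone-resorbing cells of the myeloid lineage, had the widest gap of these 3 lists. The sums over 8 of their markers were 2716 to 14151 CPM in p53-driven and 124 to 2570 CPM in Myc-knockin tumors, all 8 log2 fold changes were below 0, with a median of -4.01, and 6 markers were called lower. No marker of these 3 lists was at 0 in all tumors, while 11 of 12 T and NK cell markers did not pass the filter on low counts. The 1 T and NK cell marker tested, Cd4, had a log2 fold change of -0.27. Of 5 plasmacytoid dendritic cell markers 2 were tested, both below 0 with a median of -0.36, and 0 were called. The neutrophil and B cell lists went the other way. The 4 neutrophil and 2 B cell markers tested all had log2 fold changes above 0, and 0 were called. Sums over 7 neutrophil markers were 4.98 to 19.1 CPM in p53-driven and 4.61 to 174 CPM in Myc-knockin tumors, with the highest in M408. For 5 B cell markers they were 1.40 to 7.11 CPM and 3.66 to 25.5 CPM. The part of leukocytes and osteoclasts in the ISG values was not tested, and in bulk tumors fewer cells of a type and less RNA per cell cannot be told apart.

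None of the 4 transcription factors of the response was called. Stat2, a subunit of ISGF3, was at 9.48, 22.1, 14.4 and 11.1 CPM in the p53-driven tumors. The Myc-knockin tumors stood at 15.4, 14.7, 12.7, 11.5 and 21.3 CPM. All 5 lay within the p53-driven range, and the log2 fold change was 0.08 (SE 0.34, adjusted p = 0.905). Irf9, the DNA-binding subunit of ISGF3, had a log2 fold change of 0.38 (adjusted p = 0.537). Irf1, an early target of interferon gamma through a GAS, was at 10.3, 25.8, 21.6 and 15.0 CPM in the p53-driven tumors and at 8.62, 9.89, 5.58, 10.4 and 15.4 CPM in the Myc-knockin tumors. Only M624 and M664 reached the p53-driven range, and the log2 fold change was -0.84 (SE 0.37, adjusted p = 0.175). Irf7, the factor that amplifies type I interferon, had a log2 fold change of 1.5 (adjusted p = 0.255), with 45 CPM in M664 and 1.46 to 14.3 CPM in the other 8 tumors.

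The IFIT proteins, which bind viral RNA and hold back its translation, had log2 fold changes of 0.07 (Ifit1), 0.29 (Ifit2) and 0.15 (Ifit3). Ifit2 was at 8.69, 17.9, 10.1 and 6.20 CPM in the p53-driven tumors. The Myc-knockin values were 9.85, 15.6, 19.9, 5.33 and 16.1 CPM. The groups overlapped almost fully, with an adjusted p of 0.711. Ifit3 was lowest in M624, at 0.457 CPM, and highest in M664, at 13.3 CPM. Its reads can be shared with the near-identical copy Ifit3b, which makes its level uncertain.

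OAS enzymes, which activate RNase L on sensing double-stranded RNA, and the MX proteins, dynamin-like GTPases that trap viral particles, had log2 fold changes above 0 in all 7 of their members, from 0.35 to 2.03 over all 9 tumors, and none was called, while Oas2 and Oasl2 were below 0 without the 4 satellite libraries F187, M351, M408 and M9. Oasl1, which restrains translation of Irf7, was at 1.18, 4.12, 0.865 and 0.851 CPM in the p53-driven tumors. Myc-knockin tumors had 3.08, 4.94, 2.39, 3.51 and 10.9 CPM. F325 alone among the p53-driven tumors reached the Myc-knockin range, and the log2 fold change was 1.5 (SE 0.71, adjusted p = 0.198). The lower end of that range is M9, with 3 counts where 3.24 are expected from background. F187 and M351 had 3 and 5 counts of Oasl1, with 1.85 and 2.93 expected. Oasl2, an OAS-like protein with a ubiquitin-like tail, was the OAS gene of highest CPM, at 7.90, 22.2, 10.1 and 6.93 CPM in the p53-driven and 15.4, 18.1, 27.1, 4.34 and 12.6 CPM in the Myc-knockin tumors. Its log2 fold change was 0.35 (adjusted p = 0.706), and -0.60 without the satellite libraries. Oas1a, Oas2 and Oas3 had log2 fold changes of 1.10, 0.62 and 1.75 (adjusted p = 0.302, 0.672 and 0.298), and reads of Oas1a can be shared with near-identical copies such as Oas1g. Oas2 turned to -0.89 without the satellite libraries, and was at 0.21 with background reads subtracted and 0.014 with library size alone. Its 9 and 10 counts in M351 and M9 include 5.00 and 5.53 expected from background. Oas3 had 6.16 CPM in M351 and 19.9 CPM in M9, but these stand on 10 and 25 counts, of which 7.95 and 8.79 are expected from background.

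Mx2, the cytoplasmic relative of the nuclear Mx1, was at 2.37, 0.933, 0.692 and 0.243 CPM in the p53-driven tumors. Levels in Myc knockin were 6.16, 1.65, 3.98, 1.45 and 7.08 CPM. F187 alone kept the groups from separating, and the log2 fold change was 2.03 (SE 0.82, adjusted p = 0.144). The 6, 10 and 5 counts of Mx2 in F187, M351 and M9 compare with 2.57, 4.06 and 4.49 expected from background. How far the groups stand apart is thus uncertain. Mx1 was at 2.37, 3.03, 1.21 and 0.365 CPM in the p53-driven and 3.08, 3.85, 4.78, 0.152 and 11.2 CPM in the Myc-knockin tumors, with the lowest and the highest value in M624 and M664. Its log2 fold change was 1.42 (adjusted p = 0.377). In M351 and M9 the 5 and 6 counts of Mx1 compare with 4.26 and 4.71 expected from background. The table lists both MX genes as polymorphic pseudogenes, since the reference mouse strain carries broken copies.

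Guanylate-binding proteins and immunity-related GTPases, which attack the vacuoles of intracellular pathogens and are induced mainly by interferon gamma, split about evenly, with 3 of 7 log2 fold changes above 0 and 4 below. Gbp7 was at 20.9, 38.3, 36.7 and 21.8 CPM in the p53-driven tumors. With Myc knockin it was at 11.1, 21.6, 15.9, 2.29 and 6.74 CPM. M408 alone crossed the lowest p53-driven value. The log2 fold change was -1.39 (SE 0.54, adjusted p = 0.131), and -2.81 (adjusted p = 0.0203) without the 4 satellite libraries. Gbp7 shares 637 exon bases with Gm43802 on the same strand, so its reads may have been split or dropped. Gbp2, Gbp3, Igtp, Irgm1, Ifi47 and Iigp1 had log2 fold changes from -0.36 to 0.20.

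In the ISG15 pathway, Isg15 encodes a ubiquitin-like tag, Herc6 the ligase that attaches it in mice, and Usp18 the protease that removes it and also restrains IFNAR2. Herc6 was at 9.48, 11.7, 15.1 and 8.63 CPM in the p53-driven tumors. The 5 Myc-knockin tumors had 7.39, 5.86, 7.97, 1.49 and 4.92 CPM. The groups did not overlap but lay close, and the log2 fold change was -1.09 (SE 0.48, adjusted p = 0.174). The 12 and 10 counts in M351 and M9 are close to the 10.4 and 11.6 expected from background over its long exons, and Herc6 shares 1269 exon bases with Gm45193. Isg15 and Usp18 had log2 fold changes of 0.88 (adjusted p = 0.370) and 1.33 (adjusted p = 0.250). Trim25, a ubiquitin ligase that activates RIG-I and the member of highest CPM in this role, was at 26.1, 40.2, 40.9 and 31.1 CPM in the p53-driven and 46.8, 75.3, 15.1, 65.5 and 69.8 CPM in the Myc-knockin tumors. M9 alone stood below the p53-driven range, the other 4 above it, and the log2 fold change was 0.67 (SE 0.40, adjusted p = 0.311). Trim30a, a TRIM protein of mice, had a log2 fold change of -0.46 (adjusted p = 0.634).

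Parp9 and Parp14, members of the ADP-ribosyltransferase family, had log2 fold changes of -0.60 and -0.90. Parp14 was at 24.1, 44.5, 46.4 and 27.5 CPM in the p53-driven tumors. In Myc knockin it was at 14.8, 28.0, 31.9, 4.69 and 18.3 CPM. M408 and M9 lay inside the p53-driven range, and the adjusted p was 0.253. Parp9 overlaps Dtx3l on the opposite strand by 458 exon bases, and the strand setting of the counting is not given in the sources used here.

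The other antiviral effectors held the ISG of highest mean level per exon length in each model. Bst2 encodes tetherin, which holds budding virus at the cell surface, and lies on chromosome 8 from 71534255 to 71537456. Per kilobase of exon, Samd9l had the highest mean level of the 44 genes in the p53-driven tumors, 13.5 CPM per kb, followed by Ifi27 with 10.3 and Bst2 with 7.95. Among the Myc-knockin tumors Bst2 had the highest mean, 35.0 CPM per kb, most of it from M624 and M664, followed by Trim25 with 9.47 and Isg15 with 9.16. Bst2 was at 7.90, 9.33, 8.22 and 3.28 CPM in the p53-driven tumors. The Myc-knockin values were 14.2, 7.51, 6.37, 42.4 and 87.7 CPM. M624 and M664 stood far above the rest, M351 somewhat above, and M408 and M9 within the p53-driven range. The log2 fold change was 2.17 (SE 0.76, adjusted p = 0.101), and 0.43 (adjusted p = 0.574) without M624 and M664. DESeq2 called Bst2 higher over all 9 tumors (adjusted p = 0.0303).

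Samd9l, an antiviral protein that halts translation and restrains growth, was at 53.7, 77.9, 90.3 and 71.8 CPM in the p53-driven tumors. Myc-knockin tumors had 33.9, 28.8, 50.2, 3.47 and 30.9 CPM. The groups did not overlap, though M9 came near to F187, and M624 was far below all others. The log2 fold change was -1.35 (SE 0.54, adjusted p = 0.142), and -0.93 without M624 and M664. Cmpk2, a mitochondrial nucleotide kinase whose gene neighbors Rsad2, had a log2 fold change of 1.73 (adjusted p = 0.103), with 1.46 to 4.82 CPM in p53-driven and 2.75 to 20.9 CPM in Myc-knockin tumors. Rsad2 itself, which encodes viperin, had 0.69 (adjusted p = 0.523). The remaining members Isg20, an RNA exonuclease, Rtp4, Xaf1, Ifi27, Ifi35 and Ifi44 had log2 fold changes from -0.74 to 0.80 and adjusted p values of at least 0.219. Ifi44, at 0.80, turned to -0.59 without the 4 satellite libraries.

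The chemokines Cxcl9 and Cxcl10, which draw T and NK cells through CXCR3, varied widely within each model. Cxcl9 was at 4.34, 7.23, 13.9 and 2.80 CPM in the p53-driven tumors. Levels in Myc knockin were 1.85, 17.9, 15.1, 0.533 and 6.48 CPM. Cxcl10 was at 1.97, 4.2, 3.81 and 0.729 CPM in the p53-driven and 5.54, 4.21, 7.17, 1.52 and 14.6 CPM in the Myc-knockin tumors. Both spans of the Myc-knockin group covered most of the p53-driven span, and the log2 fold changes were 0.21 (adjusted p = 0.907) and 1.29 (adjusted p = 0.276). For Cxcl10, M624 was the only Myc-knockin tumor inside the p53-driven range. By CPM the rest lay above it, M408 barely. In M351 and M9 the 9 counts each of Cxcl10 compare with 2.53 and 2.8 expected from background. Whether M351 stands above the p53-driven range is thus uncertain. The 3 counts of Cxcl9 in M351 are no more than the 3.39 expected from background.

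**Figure D3:**
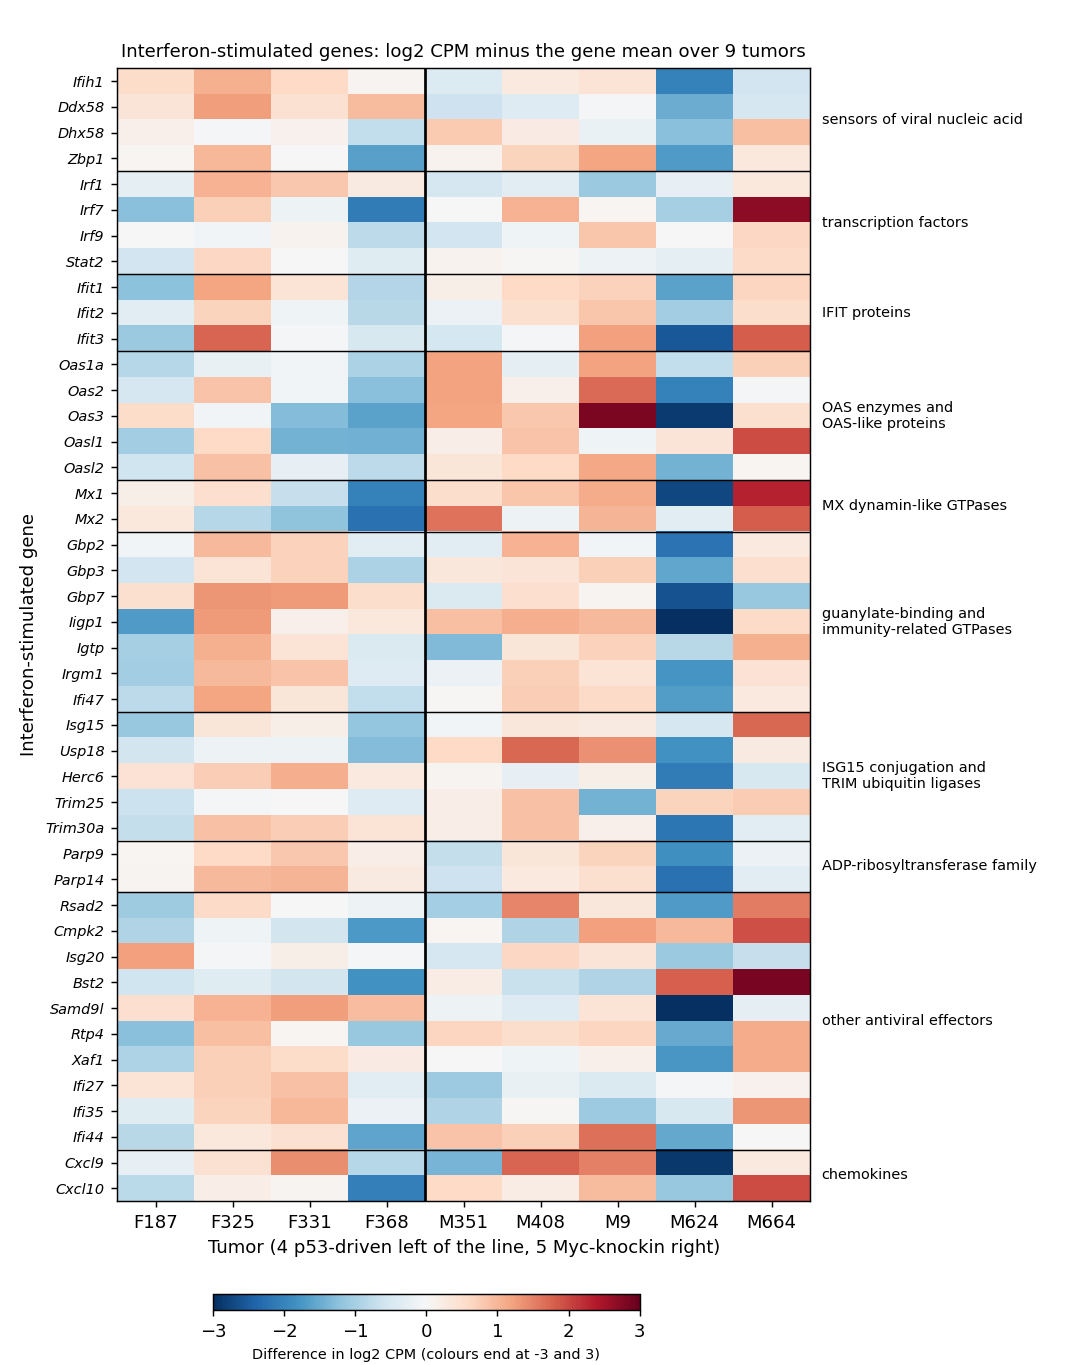
log2 CPM of each interferon-stimulated gene in each tumor minus the mean of the gene over the 9 tumors, by role; red is above and blue below the mean. The M624 column is blue for most genes with Bst2, Cmpk2, Trim25 and Oasl1 among the exceptions, and no role changes color cleanly at the line between the models.

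Tumors of the same genotype differed widely in ISG levels. M624 held the lowest of the 9 values for 28 of the 44 ISGs, against 19.9% of all genes, and the lowest of the 5 Myc-knockin values for 35 of 44, against 23.8% of all genes. M664 held the highest of the 9 values for 15 ISGs, against 13.4% of all genes, and F325 for 10, against 7.28%. Within the p53-driven group, F325 was highest for 27 of 44 (22.8% of all genes) and F368 lowest for 24 (23.4% of all genes). These shares describe single tumors, which have no replicate, and no test was made of them.

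M624 and M664 are the same kind of library and of nearly the same depth, and they were set side by side after their values were seen. All 44 ISGs had a higher log2 CPM in M664 than in M624, with a median difference of 1.94 and a range from 0.09 (Trim25) to 5.04 (Mx1). Over all genes the median difference was -0.02 and 48.3% were higher in M664. Mx1, Ifit3, Iigp1 and Irf7 had the widest gaps, at 5.04, 4.37, 4.18 and 3.67. Trim25, Ifi27, Isg20 and Irf1 had the narrowest, at 0.09, 0.16, 0.42 and 0.55. Myc itself was at 1045 CPM in M624 and 905 CPM in M664. Other marker sums moved with this gap, with leukocyte markers at 169 and 431 CPM, macrophage markers at 497 and 1427, endothelial markers at 132 and 562, osteoblast markers at 3698 and 42093, osteoclast markers at 287 and 2570 and skeletal muscle markers at 5.87 and 579 in M624 and M664, and their part in it was not tested.

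**Figure D4:**
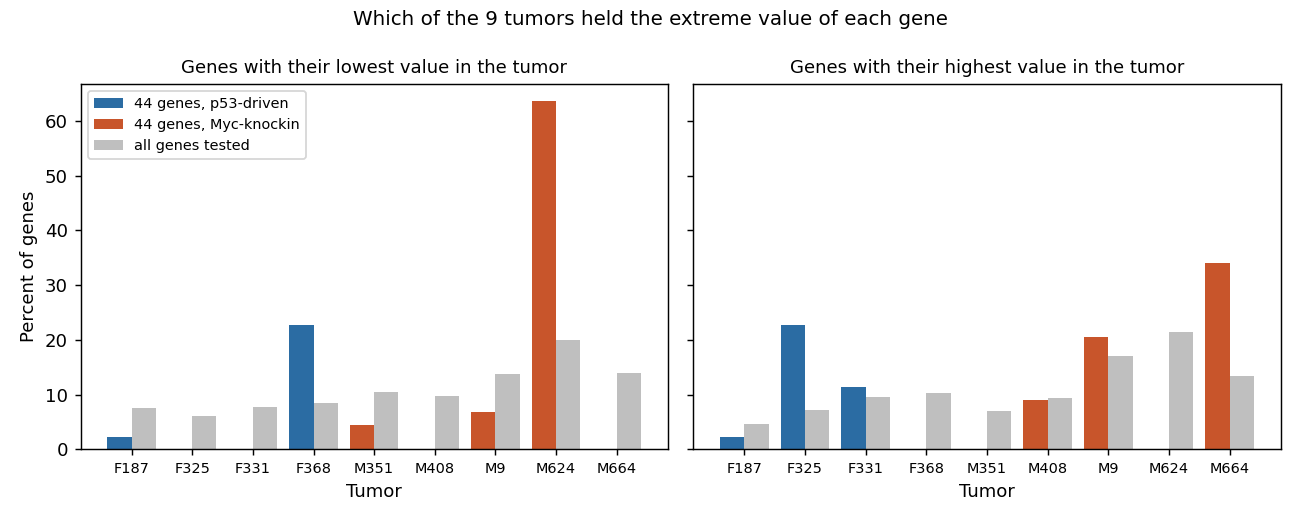
Percent of genes whose lowest (left) or highest (right) value of the 9 tumors was in the named tumor, for the 44 interferon-stimulated genes (colored by model) and for all genes tested (gray). M624 held the lowest value of 28 interferon-stimulated genes and the highest of none, and M664 the highest of 15 and the lowest of none.

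The median ISG difference had opposite signs among the satellite libraries and among the others. In the 4 satellite libraries, F187 against M351, M408 and M9, 35 of the 44 ISGs had a log2 fold change above 0, with a median of 0.98 where all genes had 0.19. This set has 1 p53-driven tumor, which is assumed to vary like the others, so nothing is read from its calls, and background made up 13.6% of the ISG counts in F187 against 31.4% and 32.6% in M351 and M9. In the other 5, F325, F331 and F368 against M624 and M664, 19 were above 0 with a median of -0.28, where all genes had -0.0029. There Ddx58 and Gbp7 were called lower and Bst2 and Cmpk2 higher, in a fit that called 12.1% of all genes lower and 15.7% higher. In that fit 11 of the 44 ISGs had the opposite sign to the fit of all 9 tumors. Without M624 and M664 alone, 27 of the 41 ISGs that passed the filter were above 0 and none was called. The difference between these library kinds was not tested.

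Upstream of the ISGs, a chain of the type I receptor and a chain of the interferon gamma receptor were called lower in Myc knockin. Of 59 other genes of the interferon pathway 37 were tested, and 2 were called lower and 1 higher in Myc knockin, where all genes gave 3% and 2.26%. Ifnar2, the high-affinity chain of the type I receptor, was at 41.5, 39.5, 47.2 and 46.6 CPM in the p53-driven tumors. With Myc knockin it was at 20.3, 25.6, 25.5, 19.0 and 27.5 CPM. The groups did not overlap, with a log2 fold change of -0.89 (SE 0.23, adjusted p = 0.0492). Ifngr2, the signaling chain of the interferon gamma receptor, was at 76.6, 95.1, 94.0 and 92.5 CPM in the p53-driven and 20.3, 42.7, 56.6, 19.7 and 35.5 CPM in the Myc-knockin tumors. Its log2 fold change was -1.37 (SE 0.33, adjusted p = 0.0421), again without overlap. With a tumor left out the adjusted p ran from 0.0432 to 0.167 for Ifnar2 and from 0.0208 to 0.138 for Ifngr2, under 0.05 in 1 fit (without M9) and in 2 fits (without M9 and without M408). Without M624 and M664 the adjusted p values were 0.0684 and 0.0846. Both calls were also lost with upper-quartile normalization (0.0645 and 0.0594), where Ptpn6, Rnaseh2a and Rnaseh2b were the pathway genes called, with background reads subtracted (0.0638 and 0.0552), with library size alone (0.426 and 0.202) and with all genes of at least 1 count (0.339 and 0.0809). Ifnar2 alone was lost with the satellite genes removed (0.0647) and without the satellite libraries (0.0670).

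Ifnar1, the other type I chain, was at 72.3 to 85.3 CPM in p53-driven and 37.5 to 68.7 CPM in Myc-knockin tumors, with a log2 fold change of -0.57 (adjusted p = 0.151). Il10rb, the shared chain of the type III interferon and IL-10 receptors, was at 22.1 to 40.7 CPM and 6.06 to 19.1 CPM, with a log2 fold change of -1.11 (adjusted p = 0.0817). Both were without overlap between the groups. Ifngr1 overlapped through M664, with 70.3 to 92.0 CPM and 11.7 to 100.1 CPM, and Ifnlr1, the specific type III chain, was low in all tumors at 0.907 to 7.17 CPM. Ifnar2, Il10rb, Ifnar1 and Ifngr2 are neighbors on chromosome 16, between 91372783 and 91565623 (mm10).

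Jak1, the kinase that type I, II and III interferon receptors all use, was at 159, 179, 203 and 204 CPM in the p53-driven tumors. The 5 Myc-knockin tumors had 91.1, 142, 46.2, 53.1 and 86.1 CPM, without overlap, and its log2 fold change was -1.15 (adjusted p = 0.0674). Ptpn6, a phosphatase that damps JAK signaling and is strong in blood cells, and Ticam1, the adaptor of TLR3, did not overlap between the groups (log2 fold changes -1.07 and -1.34, adjusted p = 0.0574 and 0.0587). Ptpn6 was at 23.5 to 39.9 CPM in p53-driven and 9.85 to 18.9 CPM in Myc-knockin tumors, and Ticam1 at 13.0 to 20.8 CPM and 4.21 to 10.8 CPM. Across the 37 genes tested the groups did not overlap for 7 lower and 1 higher, where 7.54% of all genes were lower and 5.41% higher without overlap.

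The 1 pathway gene called higher was Rnaseh2a, the catalytic subunit of RNase H2, which removes RNA from DNA hybrids and whose loss sets off interferon. It was at 7.5, 6.30, 7.27 and 5.11 CPM in the p53-driven tumors. In Myc knockin it was at 27.7, 18.9, 19.1, 63.0 and 48.6 CPM. The log2 fold change was 2.46 (SE 0.43, adjusted p = 0.0217), and 1.80 (adjusted p = 0.0272) without M624 and M664. With each tumor left out its adjusted p ran from 0.0157 to 0.0921 and stayed under 0.05 in 6 of 9 fits, not without F325 (0.0810), F331 (0.0782) or F368 (0.0921). The other subunits Rnaseh2b and Rnaseh2c had log2 fold changes of 1.53 and 1.75 (adjusted p = 0.0656 and 0.113).

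**Figure D5:**
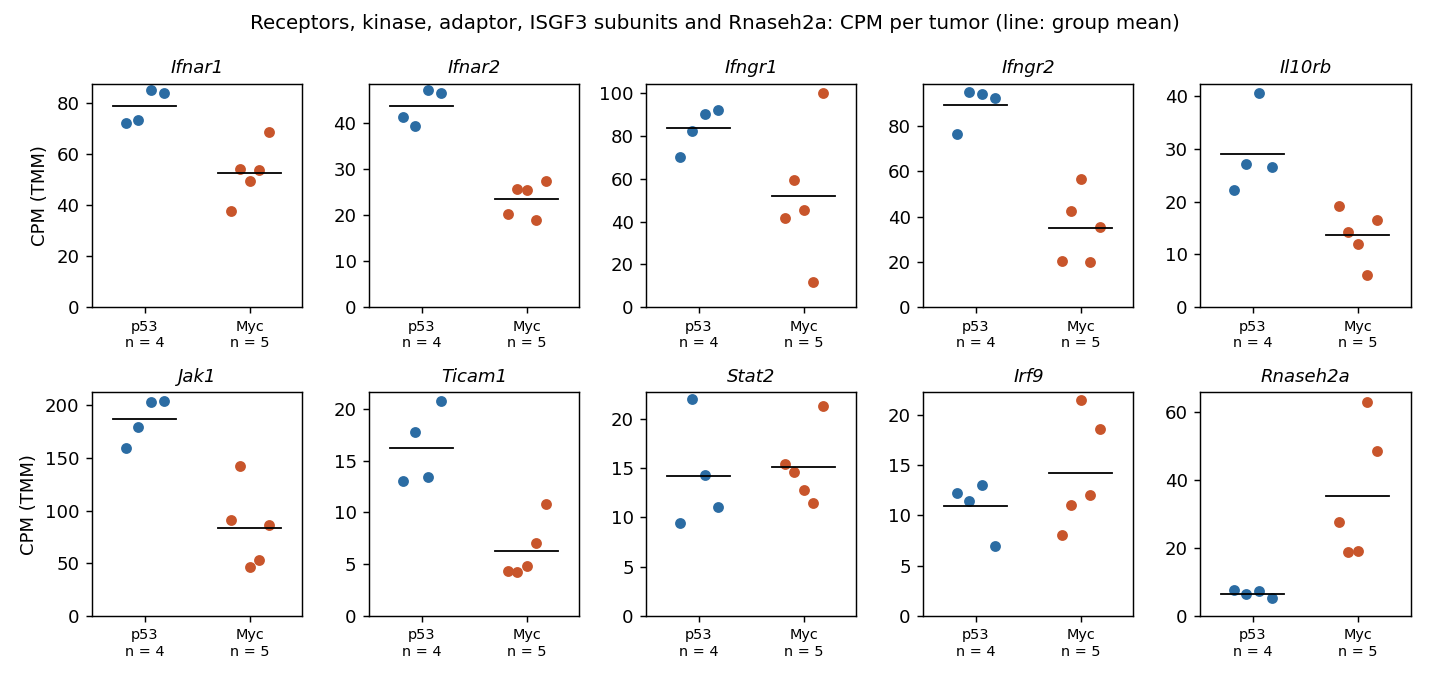
CPM in each tumor (points) and the group mean (line) for 5 receptor chains, the kinase Jak1, the adaptor Ticam1, the ISGF3 subunits Stat2 and Irf9, and Rnaseh2a; each panel has its own axis from 0. Ifnar1, Ifnar2, Ifngr2, Il10rb, Jak1 and Ticam1 are lower and Rnaseh2a is higher in every Myc-knockin tumor than in any p53-driven tumor, while Stat2 and Irf9 overlap.

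Transcripts of the interferons themselves were scarcely counted. None of 21 interferon genes passed the filter on low counts. Ifnb1 had 1 count in F331, 2 in F368, 2 in M351 and 0 in the other 6 tumors. Ifng had 1 count in F187, 2 in M351, 3 in M408, 1 in M9, 2 in M624 and 0 elsewhere. Ifnk, interferon kappa, had 25 counts in M408 and 1 to 6 in each other tumor. The 13 genes Ifna1, Ifna2, Ifna4, Ifna7, Ifna9, Ifna11, Ifna12, Ifna13, Ifna14, Ifnab, Ifnz, Ifnl2 and Ifnl3 had at most 3 counts in any tumor, and Ifna5, Ifna6, Ifna15, Ifna16 and Ifne had 0 in all. A floor of 3 counts stands for 0.114 CPM in M624 and 2.39 CPM in M9, so that a low level of these genes was not detectable at this depth.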

How the data were processed

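Total RNA of 9 whole tumors was sequenced, and the paper describes libraries enriched for mRNA with oligo-dT. The satellite and Rn7sk values above differ between the libraries, and whether all 9 were prepared in that way was not tested. The authors deposited 1 table of raw counts per gene, without normalization, for 55367 genes and 9 columns. The submitters' processing notes name Trim Galore, STAR, featureCounts and mm10. The strand setting and the treatment of multi-mapped reads are not given in the sources used here. The labels do not name the columns. The study's supporting data name the 4 columns F as p53 driven and M408 and M624 as Myc knockin, M351, M9 and M664 were placed by the letter M, and no column is tied to a numbered sample. Adjusted p values set the difference between the models against the spread between these tumors, and that spread includes the kinds of library.

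Genes were tested in R 4.3.3 with edgeR 4.0.16 (TMM, filterByExpr with a minimum count of 10, glmQLFit and glmQLFTest), with Benjamini-Hochberg adjustment over 15365 genes. Log2 CPM used a prior count of 2. The scripts were tested on simulated data. Alternatives were other normalizations and filters, DESeq2 1.42.0, limma 3.58.1 (voom with quality weights), removal of satellite genes or of background reads, subsets of libraries and each tumor left out. Values in every tumor are given for ISGs called or without overlap, and for the ISG of highest mean CPM and of smallest p in each role. In the pathway list, values or their ranges are given for genes called or without overlap, receptors and counted ligands, and 1 gene of this rule is not reported here. The ISGs, the lists and the tests were chosen with earlier results of these data known. Exon positions and overlaps are from GENCODE M21. Floors cover counting error only. Proteome, miRNA and human data were not used here.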

Additional observations from a re-analysis of the deposited data

Results flagged for a closer look

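In 3 of 56 groups of values checked among the named genes, a single tumor stood away from the others of its group by Dixon's criterion, which chance meets in about 1 group in 20. Bst2 (tetherin) in the p53-driven tumor F368 was at a log2 CPM of 1.80, where the nearest p53-driven tumor was at 3.02. Samd9l in the Myc-knockin tumor M624 was at 1.87, where the nearest Myc-knockin tumor was at 4.86. Ifngr2, the signaling chain of the interferon gamma receptor, was at 6.26 in the p53-driven tumor F187, where the nearest was at 6.53.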

How the results depend on the processing

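The count of ISGs called lower, 1 by edgeR, was 0 with upper-quartile normalization, with library size alone, with all genes of at least 1 count, without M624 and M664 and in the 4 satellite libraries, 2 without those 4, and 0 to 1 with each tumor left out. The count called higher, 0, was 1 with DESeq2 and 2 without the satellite libraries. Of the pathway genes, 3 were called, and 0 with library size alone and in the satellite libraries, 1 with all genes of at least 1 count and with background reads subtracted, 5 with at least 10 counts in every tumor, 7 with limma-voom and without the satellite libraries, 8 with DESeq2, and 0 to 4 with each tumor left out. Over all genes 809 were called, and 136 with library size alone, 494 with all genes of at least 1 count, 1316 with at least 10 counts in every tumor, 2377 with DESeq2, 1663 with limma-voom, 4595 without the satellite libraries, 0 within them and 5 to 1588 with a tumor left out. The difference in mean log2 CPM, 0.10, moved by less than the spread between tumors in all alternatives but changed sign in some, from -0.39 without the satellite libraries to 0.60 within them. The cause was not tested. The fit within the satellite libraries has 1 p53-driven tumor, so its counts of 0 say nothing about stability.

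Single genes changed sign, among them some well away from 0. Without the satellite libraries 11 of the 44 ISGs did, with Oas2 going from 0.62 to -0.89 and Ifi44 from 0.80 to -0.59, and within them 7 did, with Parp14 going from -0.90 to 0.031. Stat2 was at -0.0022 with all genes and from -0.087 to 0.38 with a tumor left out. Ifit2 was at -0.063 and Oasl2 at -0.60 without the satellite libraries, and Oasl2 at -0.014 with library size alone. Cxcl9 was at -0.050 with library size alone, -0.38 with limma-voom, -1.17 without the satellite libraries and from -0.32 to 0.77 with a tumor left out. Ifnlr1 was at -0.11 with library size alone, -0.015 with all genes, -0.37 with limma-voom, -0.33 with background reads subtracted, -0.70 within the satellite libraries and from -0.32 to 0.36 with a tumor left out. Relative to library size alone, TMM moved the median log2 fold change of all genes from 0.03 to 0.14, and the ISG median from -0.03 to 0.20. No paired analysis was possible because the columns carry no replicate number. In F187, M351 and M9, 19, 17 and 14 of the 44 ISGs had under 10 counts, which limits what these tumors can show.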
